A study of Mus musculus with 8 samples.

Results

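To describe where H3K27-me3 lay at the genes of the Notch receptors and their ligands in fasted mouse liver, 10 genes were selected by name from 21938 protein-coding genes of the GENCODE annotation of mm10. They were the 4 receptor genes Notch1, Notch2, Notch3 and Notch4, the 5 canonical ligand genes Jag1, Jag2, Dll1, Dll3 and Dll4, and Dlk2, a gene for a Delta-like protein. All enriched regions within 50 kb of an annotated start site or over the body of a gene were taken. These were 54 of 59267 regions in the list from mice given AAV-Cre and 66 of 34586 regions in the list from mice given AAV-GFP.

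Notch receptors are membrane proteins that are activated by ligands on a neighbouring cell. Ligand binding exposes the receptor to cleavage by ADAM proteases and then by gamma-secretase, and the released intracellular domain enters the nucleus, where it joins RBPJ and Mastermind proteins at target genes such as those of the Hes and Hey families. In liver, Jag1 and Notch2 are known for their role in bile duct formation, and inherited mutations of either human gene cause Alagille syndrome. H3K27-me3 is a histone mark of silenced genes that Polycomb complexes place, often in broad domains over the genes of developmental regulators, and that JMJD3, encoded by Kdm6b, removes.

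Livers came from male JMJD3-floxed C57BL/6 mice, so that the controls carried the floxed allele too. At 8 weeks of age they received AAV-TBG-Cre, in which the TBG promoter drives Cre recombinase expression in hepatocytes, or AAV-GFP as control, and 12 weeks after injection they were fasted for 16 h. For each virus, 2 H3K27-me3 libraries from 2 mice and 2 input libraries were deposited, and each virus group is represented by 1 list of regions made from both mice. With no value per mouse, the spread within a group could not be measured, and all comparisons below describe 2 lists. Liver also holds bile duct, endothelial, stellate and blood cells, and marks in these cells cannot be told apart from marks in hepatocytes in bulk tissue.

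The lists differ as a whole. AAV-Cre regions covered 73.7 Mb with a median width of 753 bp, whereas AAV-GFP regions covered 14.9 Mb with a median width of 231 bp. The shortest region was 300 bp in AAV-Cre and 120 bp in AAV-GFP, and 88.6% and 46.8% of the regions reached a q-value of 0.05 within their own list. The read depth behind the lists is unknown. The lists give no level of JMJD3 or of any transcript, so neither the downregulation of JMJD3 nor the cell types present could be checked. Of markers with a region within 1 kb of a start site, 0 of 10 were hepatocyte genes in either list. The counts in AAV-Cre and AAV-GFP were 4 and 3 of 5 bile duct genes and 2 and 2 of 5 endothelial genes. They were 4 and 4 of 4 stellate genes, and 2 and 0 of 4 blood cell genes. For comparison, 23.9% of all protein-coding genes had a region this close under AAV-Cre, and 16.6% did under AAV-GFP. Each marker set held 10 genes or fewer, and whether any set departs from these shares was not tested.

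The sequences before the start sites of 5 of the genes are shown because they span the patterns found. Notch3 and Dll4 had a region over this sequence in both lists, Notch4 had a region over its start site in AAV-Cre alone, and Notch1 and Notch2 had no region in either list. Each is the part of the 250 bases before the RefSeq start site (GRCm38.p6) that holds no annotated exon, written 5′ to 3′ on the strand of the gene with CG dinucleotides in capitals. The stretches are chr17:32166891-32167140 (minus strand) for Notch3, chr2:119325565-119325783 (plus) for Dll4, chr17:34564045-34564267 (plus) for Notch4, chr2:26503825-26504072 (minus) for Notch1 and chr3:98013288-98013526 (plus) for Notch2.
Notch3: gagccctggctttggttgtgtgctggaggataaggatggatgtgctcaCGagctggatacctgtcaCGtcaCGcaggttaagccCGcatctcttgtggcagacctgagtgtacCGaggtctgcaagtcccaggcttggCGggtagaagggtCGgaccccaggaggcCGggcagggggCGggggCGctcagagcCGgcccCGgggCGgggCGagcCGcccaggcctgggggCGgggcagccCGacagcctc
Dll4: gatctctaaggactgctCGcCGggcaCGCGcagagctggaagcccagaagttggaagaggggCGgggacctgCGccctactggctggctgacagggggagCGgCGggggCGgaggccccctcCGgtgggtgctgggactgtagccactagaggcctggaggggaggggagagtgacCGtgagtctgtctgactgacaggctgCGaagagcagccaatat
Notch4: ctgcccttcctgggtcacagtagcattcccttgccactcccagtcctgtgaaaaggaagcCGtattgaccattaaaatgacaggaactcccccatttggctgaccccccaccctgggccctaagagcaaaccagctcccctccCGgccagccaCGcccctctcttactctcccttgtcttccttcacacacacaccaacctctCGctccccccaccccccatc
Notch1: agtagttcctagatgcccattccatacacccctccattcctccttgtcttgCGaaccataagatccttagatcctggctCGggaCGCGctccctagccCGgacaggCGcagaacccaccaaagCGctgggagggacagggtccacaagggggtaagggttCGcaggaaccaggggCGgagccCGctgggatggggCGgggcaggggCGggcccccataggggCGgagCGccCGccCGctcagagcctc
Notch2: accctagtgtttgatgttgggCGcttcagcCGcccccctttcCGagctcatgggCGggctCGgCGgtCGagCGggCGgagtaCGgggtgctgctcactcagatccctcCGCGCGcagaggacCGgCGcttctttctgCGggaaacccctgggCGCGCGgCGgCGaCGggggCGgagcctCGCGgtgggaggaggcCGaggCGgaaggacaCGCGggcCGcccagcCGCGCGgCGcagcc
These stretches held 17 CG dinucleotides in 250 bases at Notch3, 12 in 219 at Dll4, 4 in 223 at Notch4, 16 in 248 at Notch1 and 34 in 239 at Notch2. Of the 5, the sequence before Notch4 was the poorest in CG, and the AAV-Cre region there began only 50 bp before the start site. The CG-rich sequences of Notch1 and Notch2 lay outside any region. That of Notch3, about as dense as that of Notch1, had a region over it in both lists.

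Within 15 kb of a start site, the window of the study, regions were found at 7 of the 10 genes in AAV-Cre and at 7 in AAV-GFP, against 41.5% and 27.9% of all protein-coding genes. The genes were Notch3, Notch4, Jag2, Dll1, Dll3, Dll4 and Dlk2 in both lists, against 26.7% of all genes with a region in both. None of the 10 genes had a region in AAV-Cre alone or in AAV-GFP alone, against 14.8% and 1.22% of all genes. The wider window of 50 kb with the gene body held the same 7 genes in each list, against 62.2% of all genes in AAV-Cre and 47.2% in AAV-GFP. Notch1, Notch2 and Jag1, the other 3 genes, had no region within 50 kb or over the body in either list, which held for 35.7% of all genes. By role, 2 of 4 receptors and 4 of 5 canonical ligands had a region. Closer to the start site the lists differed. Within 1 kb, 7 genes had a region in AAV-Cre and 5 in AAV-GFP, against 23.9% and 16.6% of all genes. The 5 genes had one in both lists, as 16.3% of all genes did, and 0 had one in AAV-GFP alone, against 0.287%. The 2 genes with such a region in AAV-Cre alone, a class that held 7.62% of all genes, were Notch4 and Dll1. The start site itself was covered at 6 genes in AAV-Cre and 5 in AAV-GFP, against 19.5% and 11.0% of all genes, and at 5 in both, against 10.9%. It was covered in AAV-Cre alone at Notch4, a class with 8.65% of all genes, and in AAV-GFP alone at 0 genes, a class with 0.0866%.

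**Figure D1:**
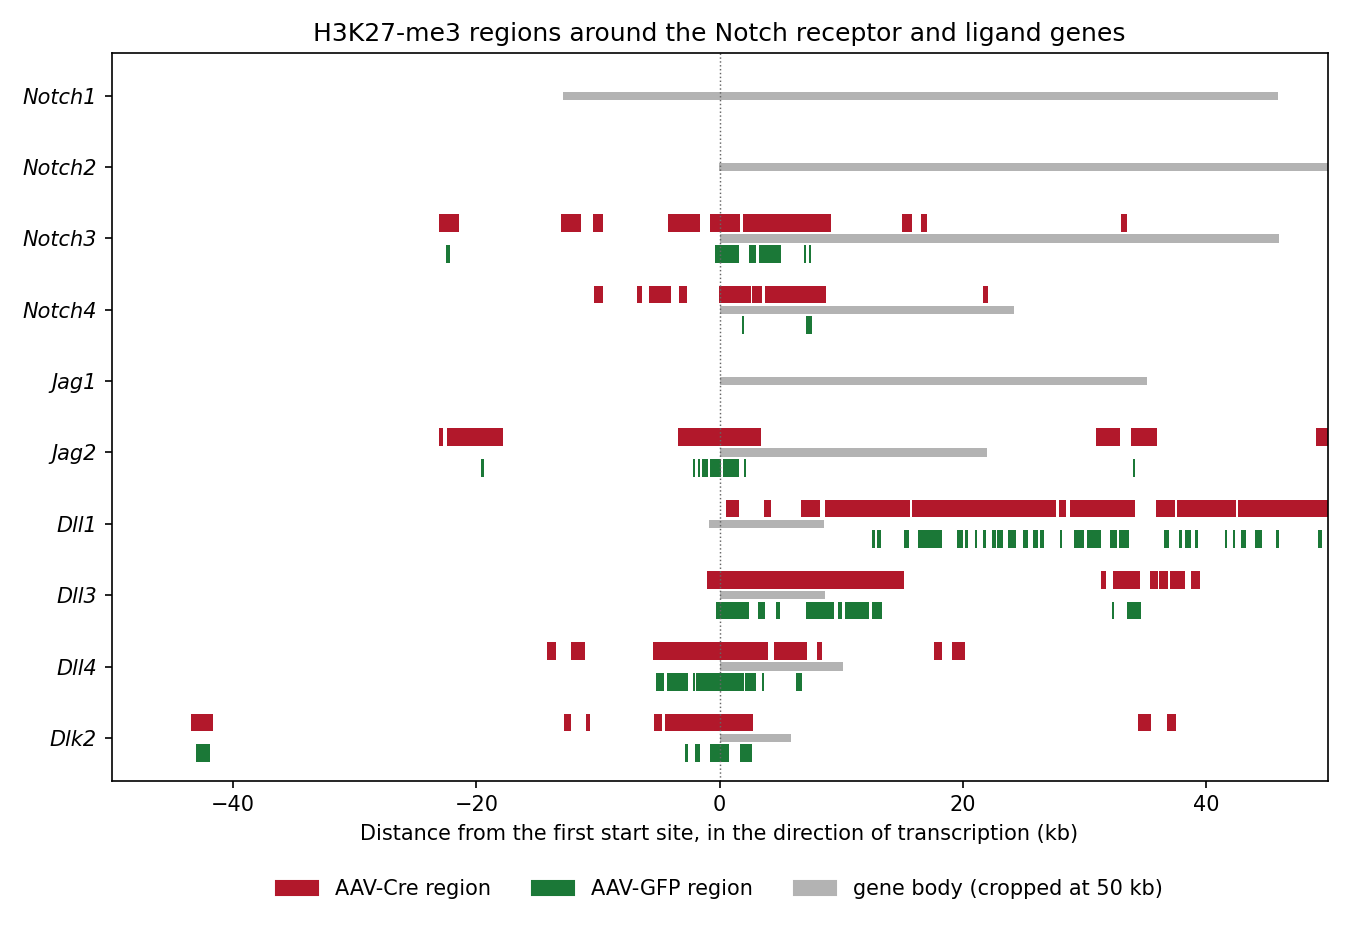
Positions of H3K27-me3 regions within 50 kb of the first start site of each gene, in kb in the direction of transcription (x axis), with AAV-Cre regions above and AAV-GFP regions below the grey gene body. At Jag2, Dll3, Dll4 and Dlk2 several AAV-GFP regions lie under 1 AAV-Cre region at the start site, AAV-GFP regions at Dll1 lie only downstream of the gene, and Notch1, Notch2 and Jag1 are empty.

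Among the receptors, Notch1 and Notch2, both of which are expressed widely in adult tissues, had no region. The nearest region to the start site of Notch1 (chr2:26503822, minus strand) was 69.2 kb away in AAV-Cre and 124 kb away in AAV-GFP. At Notch2 (chr3:98013538, plus strand) these distances were 80.2 kb and 124 kb. The nearest regions lay closer to other genes. At Notch1 they were 6769 bp from a start site of Egfl7 in AAV-Cre and over a start site of Fam69b in AAV-GFP, and at Notch2 they were 31613 bp from a start site of Sec22b and over a start site of Pde4dip.

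Notch3, a receptor known for its role in vascular smooth muscle and other mural cells, carried the region with the highest −log10 p at any of the 10 genes in AAV-Cre. This region of 2470 bp (chr17:32165133-32167602) covered the start site, the first exon and the sequence shown above, with a fold enrichment over the input of 11.5 and a −log10 p of 67.4, and ranked 233 by p-value among the regions of its list. In AAV-GFP a region of 1996 bp (chr17:32165209-32167204) lay within it, with a fold of 5.52, a −log10 p of 24.5 and a rank of 331. A region of 7261 bp in the body in AAV-Cre held 4 AAV-GFP regions, so that 23.6% of the gene was covered in AAV-Cre and 9.42% in AAV-GFP. Folds were computed against each group's own input and are not compared between lists.

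Notch4, an endothelial receptor, was covered far less in AAV-GFP. In AAV-Cre a region of 2631 bp (chr17:34564218-34566848, fold 3.30, −log10 p 6.22) ran from 50 bp before the start site into the gene, and a region of 4958 bp (chr17:34568039-34572996, fold 5.30, −log10 p 16.0) lay over coding exons. In AAV-GFP the gene held 2 regions of 178 and 520 bp, the nearer of which began 1811 bp after the start site. Thus 36.3% of the gene body was covered in AAV-Cre and 2.88% in AAV-GFP. A processed pseudogene, Gm20462, starts inside the region of 4958 bp. The shorter AAV-GFP region, in an intron (chr17:34566079-34566256, plus strand), is shown because it is the mark nearest to the start site in that list, and it holds 2 CG dinucleotides, in capitals.
Notch4 AAV-GFP region: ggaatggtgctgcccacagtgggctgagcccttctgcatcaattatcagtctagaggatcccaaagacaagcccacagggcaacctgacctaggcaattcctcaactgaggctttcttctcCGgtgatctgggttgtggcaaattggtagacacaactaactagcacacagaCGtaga

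Of the ligands, Jag1 was the farthest from any region. The nearest to its start site (chr2:137116644, minus strand) was 402 kb away in AAV-Cre, over a start site of Snap25, and 292 kb away in AAV-GFP. Its relative Jag2, the other ligand of the Jagged class, had a region of 6807 bp over the start site in AAV-Cre (chr12:112926352-112933158, fold 7.48, −log10 p 40.8). That region held 6 AAV-GFP regions of 149 to 1306 bp, of which the one over the start site was 923 bp wide (fold 3.91, −log10 p 12.6). Both lists thus marked the start site, but 15.6% of the gene body was covered in AAV-Cre and 7.24% in AAV-GFP. Another 5 AAV-Cre regions were 17842 bp or more from the start site, and 4 of them were closer to a start site of Gpr132 or Nudt14.

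Dll1, a Delta ligand, differed in place as well as in extent. AAV-Cre held 10 regions there and AAV-GFP held 29. In AAV-Cre 3 regions lay in the gene, covering 33.6% of it, and the closest to the start site (chr17:15374361-15375479, 1119 bp, fold 5.34, −log10 p 17.8) lay 497 bp downstream of the start site over untranslated and coding exon sequence. The annotated gene record begins further upstream, 1393 bp from this region, and with that end in place of the start site Dll1 had no region within 1 kb. The long noncoding RNA gene A930024N18Rik also starts in this region. All 29 AAV-GFP regions lay downstream of the gene, and 0 lay in it. The nearest to the start site, at 12543 bp (chr17:15363226-15363433, plus strand), is shown because every AAV-GFP mark at Dll1 lay at or beyond it. Its 208 bases held 2 CG dinucleotides, in capitals.
Dll1 AAV-GFP region: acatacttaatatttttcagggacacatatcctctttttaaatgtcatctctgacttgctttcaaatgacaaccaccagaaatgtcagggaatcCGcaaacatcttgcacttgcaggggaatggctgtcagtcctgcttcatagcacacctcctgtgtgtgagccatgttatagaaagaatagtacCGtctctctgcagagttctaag
Downstream of the start site of Dll1 both lists marked a long stretch that held no protein-coding start site. When regions up to 5 kb apart were joined, it ran in AAV-Cre over 97.0 kb, from 497 to 97475 bp downstream of the start site. There it contained 29 regions, among them the 3 in the gene. In AAV-GFP it ran over 40.1 kb, from 12543 to 52640 bp, and contained 32 regions. For each region there within 50 kb, Dll1 had the closest start site of a protein-coding gene, and Fam120b was next. The regions at Dll1 had medians of 0.972 CG per 100 bases in AAV-Cre and 0.744 in AAV-GFP. Over all regions at the 10 genes, those at Dll1 included, the medians were 1.60 and 1.28. At Notch4 they were 1.88 and 0.753. The medians over the whole lists were not computed.

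Dll3, a divergent Delta protein that acts within the cell during somite formation, was covered from end to end in AAV-Cre. A single region of 16199 bp (chr7:28287088-28303286, fold 9.73, −log10 p 46.0), the widest at any of the 10 genes, also covered the start site of Selenov, which lies downstream of Dll3. It held 7 AAV-GFP regions, of which one of 2712 bp (fold 4.58, −log10 p 14.1) covered the start site of Dll3 and one of 1966 bp (fold 4.65, −log10 p 16.5) that of Selenov. In AAV-GFP 56.6% of the gene was covered. A second cluster, 31403 bp or more downstream of the start site, had 6 regions in AAV-Cre and 2 in AAV-GFP, all closer to Eid2. One of these, over the start site of Eid2, had the highest −log10 p of the 66 AAV-GFP regions, 29.9, with a fold of 6.92.

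Dll4, the Delta ligand of sprouting endothelium, had a region of 9430 bp over the start site in AAV-Cre (chr2:119320309-119329738, fold 6.21, −log10 p 40.2). It held 6 AAV-GFP regions, and the one over the start site was 3893 bp wide (fold 4.25, −log10 p 18.9), the widest AAV-GFP region at the 10 genes. The gene body was covered to 69.9% in AAV-Cre and 35.2% in AAV-GFP. Gm14207, a noncoding transcript, starts in the AAV-Cre region too. In AAV-Cre, 2 regions of 692 and 1036 bp downstream of the gene were closer to a start site of Chac1.

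Dlk2 encodes a Delta-like protein that lacks the receptor-binding domain of the canonical ligands and is known as a modulator of Notch signalling in fat cell differentiation. In AAV-Cre a region of 7220 bp (chr17:46292972-46300191, fold 9.53, −log10 p 61.2, rank 357) covered its start sites. It held 4 AAV-GFP regions of 264 to 1615 bp, the widest of which covered a start site (fold 2.97, −log10 p 10.5). The gene body was covered to 47.4% in AAV-Cre and 29.2% in AAV-GFP. Of 7 AAV-Cre regions at Dlk2, 5 were closer to a start site of Lrrc73, Tjap1 or Abcc10, among them a region over the start site of Lrrc73 that AAV-GFP shared in part.

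The extent of the marks was compared as the number of bases covered within 15 kb of the start sites. At Notch3 it was 14750 bp in AAV-Cre and 4690 bp in AAV-GFP, a ratio of 3.14. Dll3 had 16049 and 9029 bp (1.78), Dll4 14404 and 8029 bp (1.79), Jag2 6807 and 3192 bp (2.13), and Dlk2 8729 and 3248 bp (2.69). At Notch4 it was 12001 and 698 bp, a ratio of 17.2, and at Dll1 9543 and 516 bp, a ratio of 18.5. The value at Dll1 depended on the window, since most of its AAV-GFP regions lay beyond 15 kb. Within 50 kb and over the body Dll1 had 41728 bp in AAV-Cre and 13431 bp in AAV-GFP, a ratio of 3.11. In that window the ratios were 17.8 at Notch4, 4.69 at Jag2, 3.65 at Notch3, 2.76 at Dlk2, 2.14 at Dll3 and 2.01 at Dll4, so that Notch4 stood apart in both windows and Dll1 in the narrow one alone. All 7 genes were covered more in AAV-Cre, as the list as a whole was, by 4.93 times. Among the 5862 genes with a region in both lists the median ratio within 15 kb was 3.80, with an interquartile range of 2.43 to 7.15. In this window Notch4 and Dll1 stood at percentiles 92.6 and 93.5 of these genes. Dll3, Dll4, Jag2, Dlk2 and Notch3 stood below the median, at 10.2, 10.7, 18.4, 30.7 and 39.1.

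**Figure D2:**
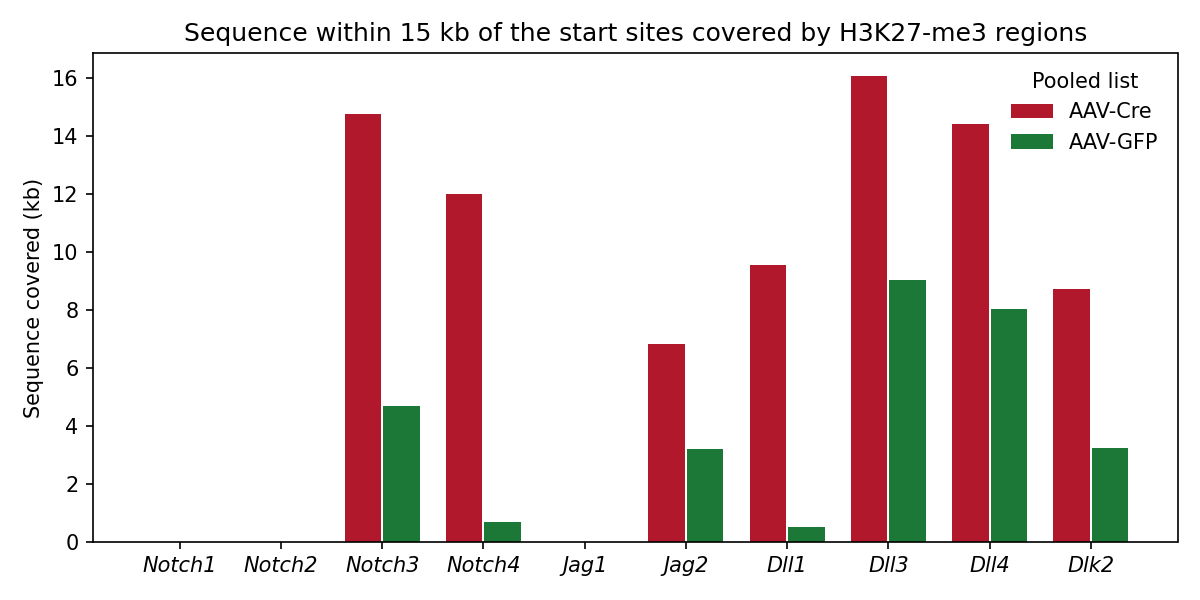
Bars give the kb of sequence within 15 kb of the start sites that regions of each pooled list cover, with 1 list per virus and no error bar because the lists hold no value per mouse. AAV-Cre bars are higher at all 7 genes with regions, most unequally in this window at Notch4 (12001 against 698 bp) and Dll1 (9543 against 516 bp, but 41728 against 13431 bp within 50 kb), and Notch1, Notch2 and Jag1 have no bar.

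Over all windows and gene bodies, regions covered 139848 bp in AAV-Cre and 45571 bp in AAV-GFP. This was a ratio of 3.07, against 4.93 for the whole lists. All 66 AAV-GFP regions (100%, Wilson 95% interval 94.5 to 100%) overlapped an AAV-Cre region, as did 86.4% of the whole AAV-GFP list. Conversely, 21 of 54 AAV-Cre regions (38.9%, interval 27 to 52.2%) overlapped an AAV-GFP region, against 24.2% of the whole AAV-Cre list. Regions of 1 gene are not independent, and these intervals cover counting error only. Over the full length of these regions, 99.7% of the AAV-GFP bases lay in AAV-Cre regions, against 93.3% of the whole list. Of the AAV-Cre bases, 141128 bp with the parts of regions beyond the windows, 32.7% lay in AAV-GFP regions, against 18.9% of the whole list. The 21 AAV-Cre regions that AAV-GFP shared had a median width of 4925 bp. A wider region is more likely to overlap any region of the other list. The other 33 had a median of 709 bp, near the 753 bp of the whole list, and 15 of these were closer to a start site of another protein-coding gene.

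The regions at these genes were wide for their lists. Their median width was 1124 bp in the first list and 452.5 bp in the second, and 9 of 54 AAV-Cre regions (16.7%) were 5 kb or wider, against 2.71% of that list. Those of 8537, 5330, 11778 and 7046 bp lay in 1 stretch downstream of Dll1, so a single locus weighed heavily in this share. In AAV-GFP 0 of 66 regions were 5 kb or wider, against 0.165% of the list. By p-value, 16 of the 54 AAV-Cre regions and 14 of the 66 AAV-GFP regions ranked in the top 10% of their list. A q-value of 0.05 was reached by 48 of the 54 and 44 of the 66 regions, against 88.6% and 46.8% of the lists. The AAV-Cre count was thus close to the share of its list. The regions over start sites were mostly in the strong group, with Notch4 as the exception: its start site region had a −log10 p of 6.22, against 40.2 to 67.4 at the start sites of Notch3, Jag2, Dll3, Dll4 and Dlk2.

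**Figure D3:**
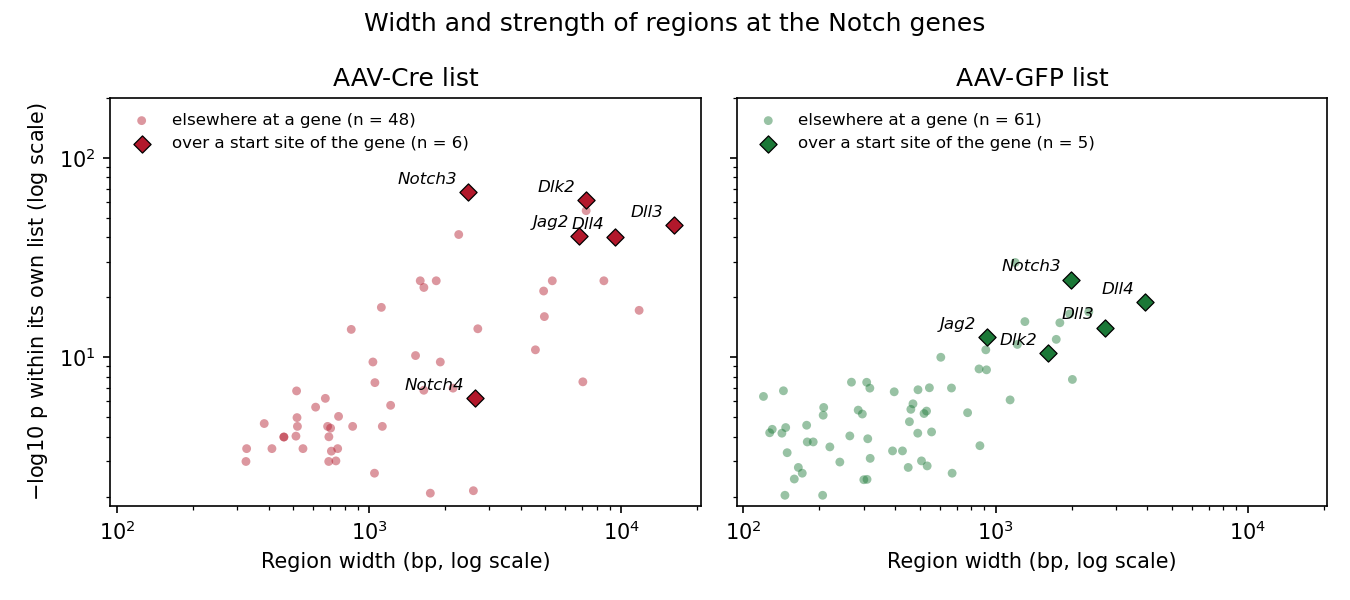
Width (x axis, bp, log scale) and −log10 p within its own list (y axis, log scale) of each region at the 10 genes, in AAV-Cre (left) and AAV-GFP (right), with diamonds for regions over a start site of the gene. In AAV-Cre 5 of the 6 diamonds lie above 40 and Notch4 lies at 6.22, and in AAV-GFP the 5 diamonds lie between 10.5 and 24.5.

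Because H3K27-me3 is often found over CG-rich start sites, base composition was described in the 2 kb around each start site. Notch1, Notch2 and Jag1, without a region, had 6.45, 6.55 and 8.30 CG per 100 bases, at percentiles 88.4, 89.0 and 96.3 of all genes. The 7 genes with regions ranged from 1.30 at Notch4, at percentile 27.6, to 11.1 at Jag2, at percentile 99.6. Between these were Dll3 with 3.45, Notch3 with 5.0, Dll4 with 5.25, Dlk2 with 5.8 and Dll1 with 7.30. The range of the marked genes thus included the unmarked ones. The median was 3.15 over all genes, 4.2 over genes with a region within 1 kb in both lists and 2.05 over those with one in AAV-Cre alone. Of the 2 members of the latter class, Notch4 was below that median and Dll1 above it. The letters TGGGAA, the core of the sequence that RBPJ binds, or TTCCCA on the other strand, were found in 0 of the 12 RefSeq promoters of the 10 genes (250 bases before to 50 after the start site) and in 25.6% of 32851 promoters of that length.

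The other genes of the pathway were examined as a list of 40. Within 15 kb, 23 of them had a region in AAV-Cre, 18 had one in AAV-GFP, and 17 had one in both, against 41.5%, 27.9% and 26.7% of all protein-coding genes. Marked in AAV-Cre alone were 6 genes (Poglut1, Mfng, Mib2, Numbl, Dtx2 and Fbxw7), a share close to the 14.8% of all genes, and in AAV-GFP alone 1 gene, Rbpj, against 1.22%. Within 1 kb the counts were 17 and 14, against 23.9% and 16.6%. Of the target genes, 5 of 6 had a region in both lists (Hes5, Hes7, Hey1, Hey2 and Heyl). The AAV-GFP region at Hes7 was 125 bp wide with a −log10 q of 0.89, and Hes7 was not marked in AAV-GFP at a q-value of 0.05. The widest was 9508 bp at Heyl in AAV-Cre, with a fold of 10.0, where AAV-GFP had 977 bp. Hes1, a target expressed in many cell types and named here after its values were seen, was 30322 bp from the nearest region in AAV-Cre and 237491 bp in AAV-GFP. Of the 8 genes of proteases that cleave the receptor or of their subunits, 1 had a region in each list. This was Aph1b, a gamma-secretase subunit, with 911 bp over the start site in AAV-Cre and 163 bp at 10545 bp in AAV-GFP, the latter closer to Gm10647.

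The noncanonical ligands Dlk1, an imprinted gene, and Dner, a neuronal gene, both had regions over their start sites in both lists. The AAV-Cre region at Dner had a fold of 16.1 and a −log10 p of 93.7, higher than any at the 10 genes. Within 15 kb, 41.5% of all genes had a region in AAV-Cre and 27.9% in AAV-GFP. Of 5 glycosyltransferases that modify the receptors, 4 had such a region in AAV-Cre and 2 in AAV-GFP. Lfng was covered at the start site in both lists, and Mfng, a second Fringe enzyme, by 819 bp in AAV-Cre alone. Of 4 ubiquitin ligases that act on ligands, Neurl1a and Neurl1b had a region within 1 kb in both lists, and Mib2 was marked in AAV-Cre alone, by a region over the start site of Mmp23. AAV-GFP had a region over that start site too, of 1024 bp, at 15296 bp from Mib2 and so just past the window. In the nuclear complex of 6 genes, the coactivator gene Maml2 was covered at its start site in both lists. The region that marked Rbpj in AAV-GFP was 168 bp wide, 13894 bp from a start site, with a −log10 q of 0.739. Of 9 genes that modulate receptor activity, 7 had a region within 15 kb in AAV-Cre and 4 in AAV-GFP, against 41.5% and 27.9%. Dtx1, Dtx3 and the feedback inhibitor Nrarp were covered at a start site in both lists, though not necessarily the same 1 of the 3 at Dtx3. The region at Nrarp was the widest of these, 11575 bp in AAV-Cre and 3219 bp in AAV-GFP. Numbl had a region of 971 bp at 77 bp from its start site in AAV-Cre, and the nearest in AAV-GFP was 25415 bp away. The marks of Poglut1, Dtx2 and Fbxw7 in AAV-Cre were regions of 596, 628 and 469 bp, at 1133, 10295 and 10707 bp, and the one at Dtx2 was closer to Zp3. The nearest AAV-GFP region to Dtx2, at 15351 bp, also lay just past the window.

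**Figure D4:**
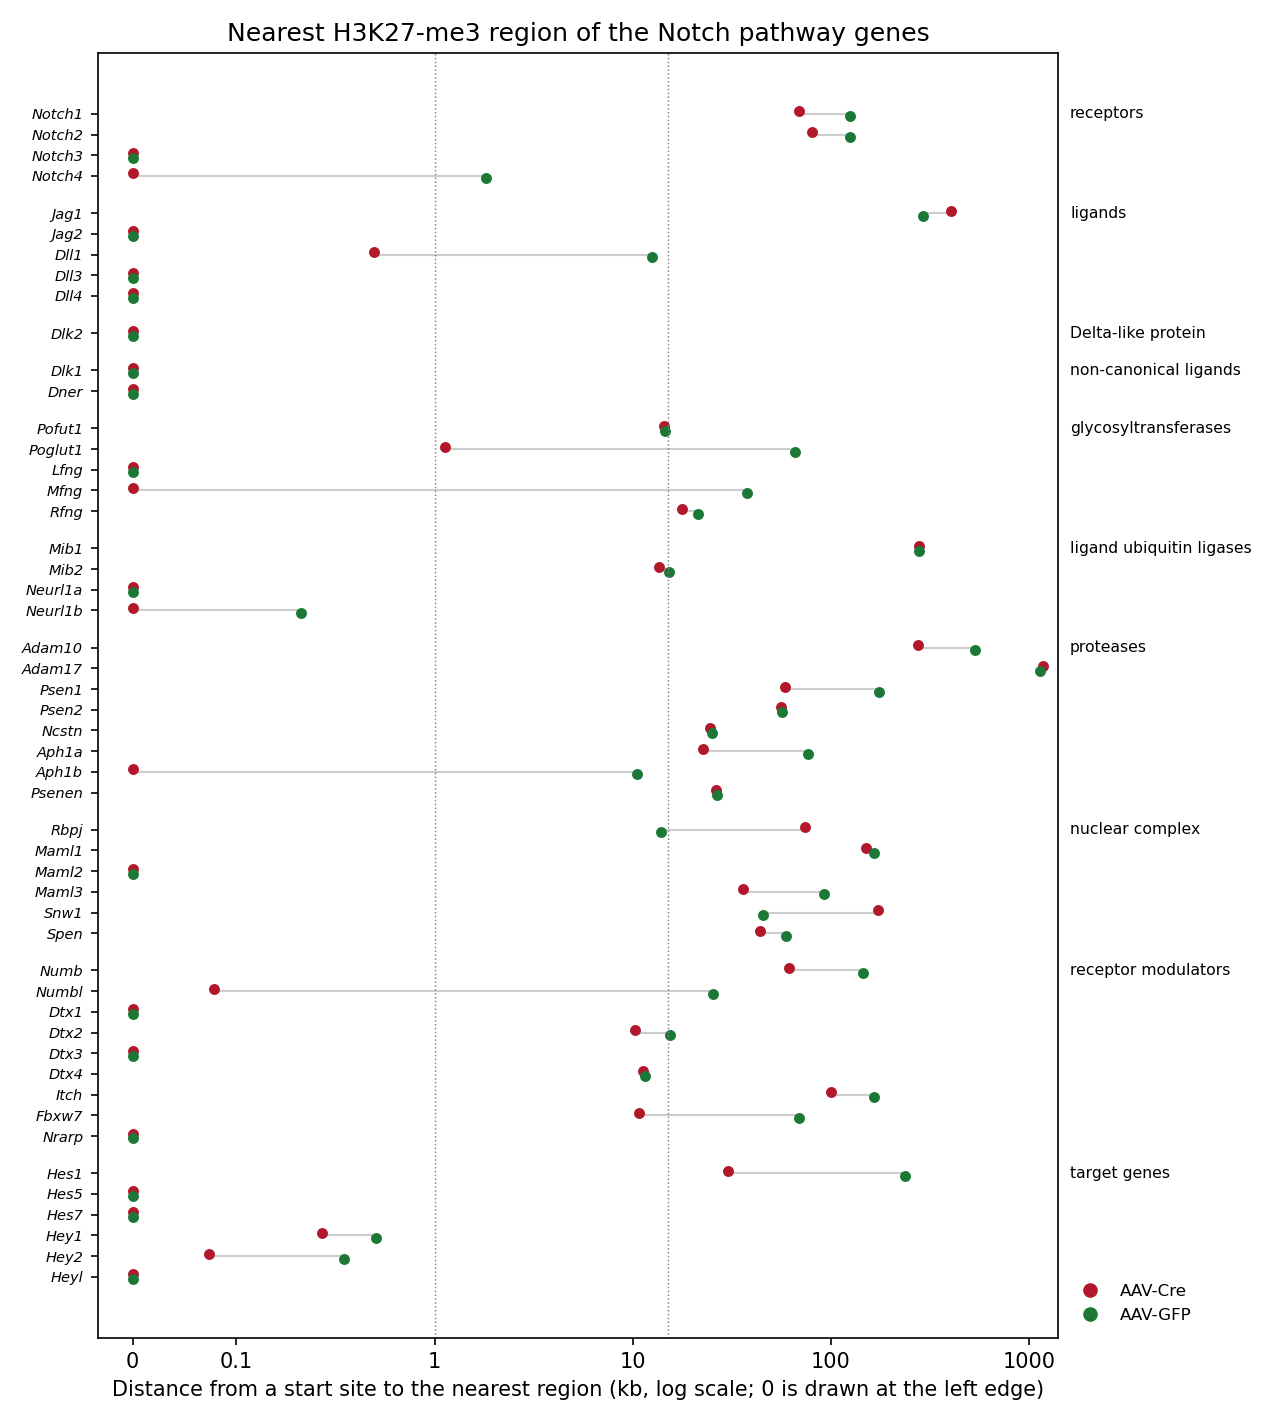
Distance in kb (log scale, with 0 drawn at the left edge) from a start site to the nearest region in AAV-Cre and AAV-GFP for the 10 receptor and ligand genes and 40 other pathway genes, grouped by role, with dotted lines at 1 and 15 kb. Most target genes lie within 1 kb in both lists, most proteases lie beyond 15 kb, and Notch1, Notch2 and Jag1 lie beyond 50 kb.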

How the data were processed

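Genes and lists were chosen with earlier results of these data known. H3K27-me3 ChIP-seq (antibody Ab6002) used livers of 2 mice per virus. Per the submitters' processing notes the authors used BWA 0.7.13, SAMtools 1.2 and Picard 1.126, mapped to mm10 and called narrow peaks with MACS, which splits broad domains. Each deposited list pools both mice. The paper's methods took as enriched those final peaks that overlapped between replicates. The deposited columns are a fold enrichment (a ratio to input), −log10 p and −log10 q values, all from the authors' peak calls. A deposited score for display was left unused. Read depth per sample is unknown.

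Regions are the peaks as deposited, since peaks lay at least 100 bp apart. Distances were taken to start sites of basic protein-coding transcripts (GENCODE M21, GRCm38), or of other basic transcripts for 87 genes without one. A gene was called marked with a region within 15 kb. Lists overlapped at 1 bp or more. Named are all 10 genes, the closest other coding gene, pathway genes with a region within 1 kb or marked in 1 list only, and Hes1, added after its values were seen. RefSeq gave 12 promoters for the 10 genes, all equal to the genome. No test between groups was made, as there is 1 list per virus. Interval functions were tested on simulated data: 100% of results on 1056 genes equalled a direct search. Alternatives covered q-value, number and width of peaks, merging, windows, start sites and overlap rules. Python 3.11.15, numpy 2.4.6, scipy 1.17.1, pysam 0.24.0 and matplotlib 3.10.9 were used.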

Additional observations from a re-analysis of the deposited data

How the results depend on the processing

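Of 90 alternative values for the 12 counts, lengths and shares of this report, 76 stayed within 1.5 times the reported count or length, or within the interval of the reported share, and 14 moved further. Some of the 76 could not change and say nothing about stability. A minimum width of 300 bp removed no AAV-Cre region, so AAV-Cre counts and lengths were fixed. The equal number of top peaks was the full AAV-GFP list, so AAV-GFP counts and lengths were fixed there. The same 7 genes had a region within 15 kb under all alternatives in both lists, except that Dll1 had none within 5 kb in AAV-GFP (6 genes). Within 1 kb, Dll1 was no longer counted in AAV-Cre when the start site itself had to be covered or when the 5′ end of the gene record replaced the start sites, which left 6 genes. At a q-value of 0.05 or lower, Rbpj was no longer marked in AAV-GFP, and 14 pathway genes were. Counting for each gene only regions closer to it than to another coding gene, an alternative chosen after seeing the data, left 7 genes in both lists.

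The number of regions depended on how peaks were joined. With peaks joined within 1 kb there were 30 regions in AAV-Cre and 24 in AAV-GFP, within 5 kb 21 and 13, and with a window of 15 kb and the gene body 31 and 33. In AAV-GFP, 36 regions had a q-value of 0.01 or lower and 43 were at least 300 bp wide. Covered bases in the window of 15 kb with the body were 84564 bp in AAV-Cre and 29402 bp in AAV-GFP, fewer by construction. Joining within 5 kb gave 167165 bp in AAV-Cre and 85903 bp in AAV-GFP. The share of AAV-Cre regions at these genes that AAV-GFP shared was 55.3% with equal numbers of top peaks. It was 61.9% with peaks joined within 5 kb, and 11.1% when overlap had to span 0.5 of a region or more. The share of the whole AAV-Cre list, 24.2% in the main setting, was not computed under the alternatives, nor was that of the AAV-GFP list. Whether the shifts are particular to these genes was therefore not tested. The share of AAV-GFP regions that AAV-Cre shared was 100% under every alternative run. Counting regions within 1 kb of the other list could only leave it at 100%. So could a minimum width of 300 bp, which removed no AAV-Cre region, and joining peaks also favours overlap. No paired analysis was possible because both mice of a group share 1 list, and for the same reason no mouse could be left out. Counts of short or weak regions cannot be compared between lists whose shortest regions are 300 and 120 bp, and the read depth behind each list is unknown.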
